A study of Mus musculus with 12 samples.

Results

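Mesenchymal stem cells isolated from mouse adipose tissue were compared after 24 h of attached culture with the same kind of culture at 0 h. The members are the 6 libraries of attached 2D single cells, 3 at 0 h and 3 at 24 h, out of 12 libraries in all. They were chosen by the culture and time in their labels. The other 6 libraries are 3D spheroids, rounded cell aggregates sampled at the same times. Per the labels, all cultures were kept in DMEM with fetal bovine serum and antibiotics, and no drug, transgene or deletion is named. The labels name no mouse strain, age or sex, and do not say how long the cells had been attached at 0 h. Whether the libraries of a group came from separate cultures is not stated either, so the p-values measure only how these libraries spread, and that spread may be technical.

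Mesenchymal stem cells of fat are stromal cells that grow attached to plastic, divide there, secrete matrix and can be led towards fat, bone or cartilage. A cell that divides passes through G1, through S, in which DNA is copied, and through G2 and M, in which chromosomes are separated. Transcripts of many replication and mitosis genes rise and fall with these phases. In a sequencing library, a long transcript gives more fragments than a short one of equal abundance. Software for RNA abundance therefore works with an effective length, which is the transcript length less an allowance for fragment size, and libraries that differ in fragment size or RNA quality can recover long and short transcripts to different degrees.

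The tables identify genes by Ensembl ID, and 0 of these IDs matched an entry of the reference table used here. Genes are therefore given by ID, without a name or a function, and the labelled cell type was not checked against marker genes. Gene groups below are defined by length, by abundance or by Ensembl ID lists of cell cycle markers.

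The 6 attached libraries held between 11299500 and 15294800 expected counts, which are read counts estimated per gene. The number of genes seen per library ran from 17022 to 18387, with overlap between the times. The 10 most abundant genes took 6.75%, 5.99% and 7.43% of the counts in 0 h replicates 1, 2 and 3, and 8.99%, 9.07% and 8.99% in 24 h replicates 1, 2 and 3, without overlap. Replicates of a group correlated across genes at 0.968 to 0.982 in log2 CPM (counts scaled to library size, with TMM, a method that aligns libraries on genes that change little). No pair of replicates agreed within sampling noise: chi-square divided by its degrees of freedom was 6.31 or more in each pair.

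After 24 h of attached culture, 2489 genes were higher and 2441 were lower among the 14338 tested (edgeR quasi-likelihood test, Benjamini-Hochberg adjusted p under 0.05). Called genes made up 34.4% of those tested, with 17.4% higher and 17% lower. A change of 4-fold or more was seen for 200 of the higher and 111 of the lower genes. In size, the median log2 fold change was 0.80 for genes called higher and, as an absolute value, 0.62 for genes called lower. The 24 h libraries lay wholly above the 0 h libraries for 3113 genes, of which 2302 were called higher. They lay wholly below for 3065 genes, of which 2308 were called lower. In bulk RNA of this kind, fewer cells of a type and less RNA per cell cannot be told apart. The share of calls that were higher was 50.5%, and other tests on counts moved it little. It was 51.1% with limma-voom after TMM and 49.5% with DESeq2 and its own size factors. Scaling by library totals in place of TMM, with the same test, gave 57.3%. The deposited log2(TPM + 1) values were tested with limma, without TMM (TPM is abundance per transcript length, with the same total in every library). They gave 2891 higher and 1257 lower, or 69.7% higher. In that setting the scaling, the unit and the test all differed from the main fit. On that scale the median of all genes lay at 0.17, against 0.02 with TMM.

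The calls were arranged by gene length. Relative effective length, computed here as the ratio of expected count to TPM and scaled to the median gene, could be had for 14276 of the genes tested. The log2 fold change went with this length across genes (Spearman's rho = 0.33, a description, since genes are not independent replicates). The genes were divided into 5 equal groups from the shortest (group 1) to the longest (group 5). In group 1, with relative lengths up to 0.548, 122 were higher at 24 h and 769 lower, and the median log2 fold change was -0.34. Group 2 had 325 higher and 665 lower. Group 3 was near balance, with 478 higher and 455 lower and a median of 0.04. Group 5, with relative lengths from 1.63, had 914 higher and 205 lower, with a median of 0.33.

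**Figure D1:**
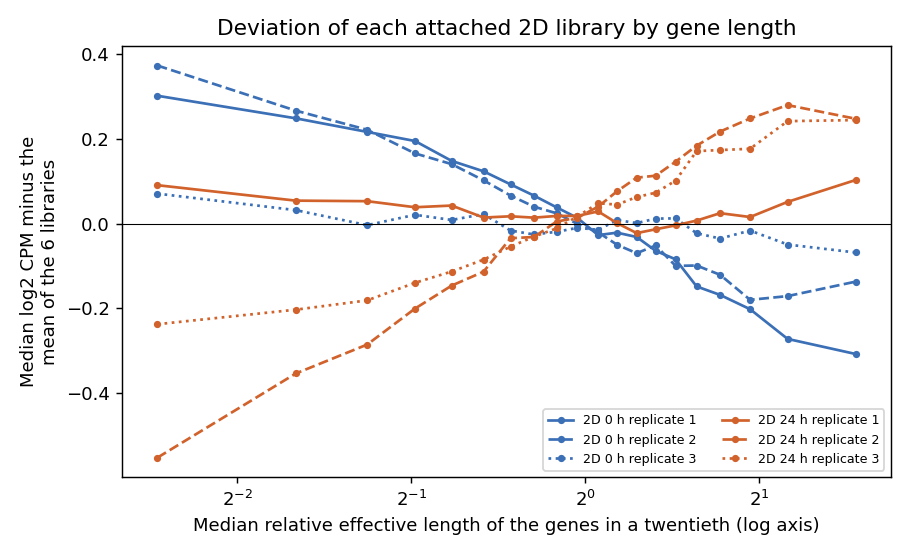
Each line is 1 attached 2D library, and each point is the median, over 1 of 20 equal groups of genes by length, of log2 CPM minus the gene's mean over the 6 libraries, against the median relative effective length (log axis). Replicates 1 and 2 at 0 h fall with length and replicates 2 and 3 at 24 h rise, while 0 h replicate 3 and 24 h replicate 1 vary less with length.

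The trend was uneven among the libraries of a group. The length slope of a library is the change in log2 CPM deviation, from the gene's mean over all 12 libraries, for each doubling of relative length. At 0 h it was -0.130 in replicate 1, -0.128 in replicate 2 and -0.0185 in replicate 3. At 24 h it was -0.00294 in replicate 1, 0.199 in replicate 2 and 0.134 in replicate 3. The groups did not overlap, but 0 h replicate 3 and 24 h replicate 1 lay next to each other, far from the other members of their groups. The group means were -0.0920 ± 0.0637 at 0 h and 0.11 ± 0.103 at 24 h (SD, n = 3). An exact permutation test, two-sided, gave p = 0.1, the smallest that 3 libraries against 3 allow, and 0.13 after adjustment over 4 such tests. More such tests were computed on these libraries, and the adjustment does not count them.

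Pairs of libraries showed the same. The difference between 24 h replicate 1 and 0 h replicate 3 went with length at a rho of 0.0178 across genes. The other 8 pairs of a 24 h and a 0 h library gave between 0.195 and 0.433. Within the 24 h group, replicates 2 and 3 differed from replicate 1 with rho values of 0.449 and 0.387. Within the 0 h group, replicate 3 differed from replicates 1 and 2 with rho values of 0.319 and 0.230. A length trend as large as that between the times was thus also present between replicates of 1 time. In the spheroids the slopes ran from -0.0994 to 0.148, and both of these values came from the 24 h group.

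**Figure D2:**
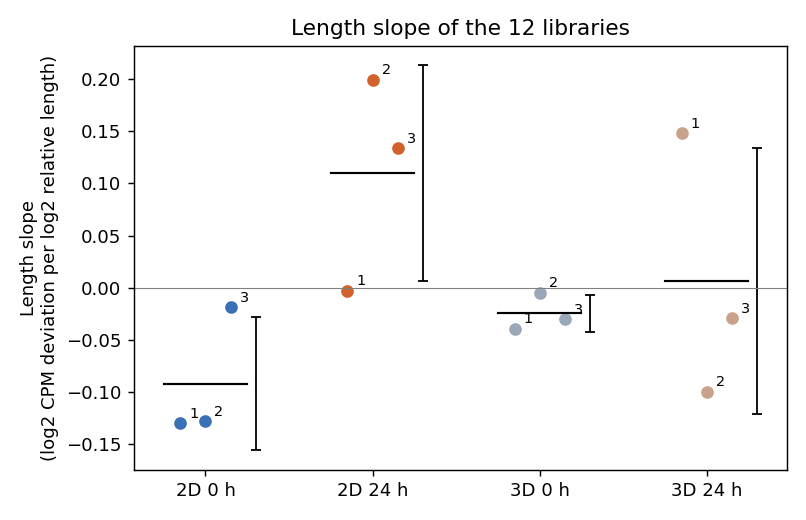
Length slope of each of the 12 libraries (change in log2 CPM deviation per doubling of relative effective length), with replicate numbers beside the points, the group mean as a bar and the SD as a whisker (n = 3). The 2D slopes run from -0.130 to -0.0185 at 0 h and from -0.00294 to 0.199 at 24 h, and the spheroids at 24 h alone span -0.0994 to 0.148.

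The effective lengths themselves also differed between libraries. In the shortest of 20 equal groups of genes, effective length relative to the longer genes of the library deviated by 0.0522, 0.0695 and 0.0550 (log2) in 0 h replicates 1, 2 and 3. It deviated by 0.0679, -0.0729 and 0.0378 in 24 h replicates 1, 2 and 3. Only 24 h replicate 2, the library with the steepest slope, was below 0 among the 6, and the groups overlapped (exact permutation test, two-sided, p = 0.3, adjusted p = 0.3). In length models of this kind, a longer fragment size gives short genes a lower effective length. The part of fragment size or RNA quality in the length trend was not tested.

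A correction for length left about as many calls but moved them between genes. For each library, a smooth curve of log2 CPM deviation on log2 relative length was taken off before the test. This also takes off any change over time that itself went with length. Higher genes then numbered 2145 (15%) and lower genes 2766 (19.4%) of 14276. Among the calls made without the correction, 1842 higher and 2040 lower genes kept their call, which is 74.1% and 83.7% of those with a length. No gene was called in opposite directions by the fits with and without the correction, though the sign of the fitted change could differ. The correction ended 645 higher and 397 lower calls, and it added 303 higher and 726 lower ones. It moved calls along most of the length range. In group 5, 494 of 914 higher calls were kept and 352 lower ones added, and in group 4, 455 of 648 were kept and 255 lower ones added. In group 3, 112 lower calls were added. In group 1, 455 of 769 lower calls were kept and 187 higher ones added, and in group 2, 582 of 665 were kept and 111 higher ones added. Of genes at least 2-fold higher, 790 of 838 kept their call, and of genes at least 2-fold lower, 397 of 425. The typical spread between replicates (biological coefficient of variation over all 12 libraries, from edgeR's common dispersion) was 15.9% without and 13.7% with the correction. The median SD of log2 CPM went from 0.247 to 0.234 at 0 h and from 0.195 to 0.157 at 24 h.

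**Figure D3:**
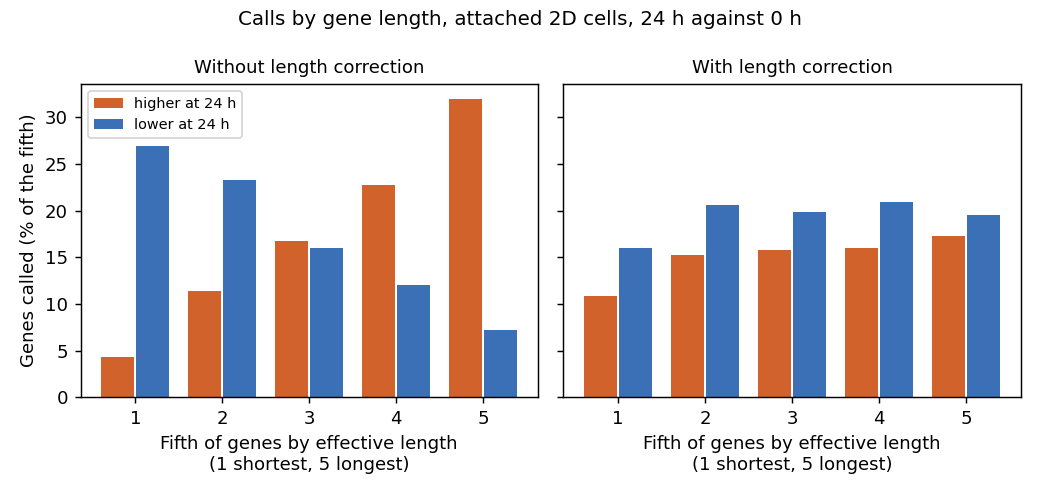
Percent of genes called higher or lower at 24 h (edgeR adjusted p under 0.05) in each of 5 equal groups of genes by effective length, without and with the length correction. Without it the higher share runs from 4.27% to 32.0% and the lower share from 26.9% to 7.18%; with it they lie between 10.8% and 17.3% and between 15.9% and 20.9%.

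The direction of change also went with abundance, for which the genes were divided into 4 equal groups by mean TPM over the 6 libraries. In group 4, the most abundant, with a mean of at least 44.9 TPM, 1362 genes (38%) were lower at 24 h and 409 (11.4%) higher. The median log2 fold change there was -0.24. Group 2, between 3.09 and 13.1 TPM, had 902 higher and 301 lower genes and a median of 0.20. In group 1, the least abundant, 459 were higher and 181 lower. Of genes called and at least 2-fold higher, 387 were in group 1, among its 459 higher calls, and 49 in group 4, among 409. A gene with few counts needs a larger change to be called, so these counts do not compare the size of change between the groups. Abundant genes were also shorter, with a median relative length of 0.734 in group 4 against 1.09 in group 1.

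The excess of lower calls among abundant genes was smaller but present with the length correction. Group 4 then had 1302 lower and 471 higher genes and a median of -0.15, and group 1 had 219 lower and 384 higher with a median of 0.19. Within each of the 5 length groups, the most abundant genes had more lower than higher calls under the correction. These were 359 against 116 among the shortest and 89 against 60 among the longest. Without the correction, the longest went the other way, with 35 lower and 94 higher calls. Their median was 0.17 without and -0.12 with the correction. In the other length groups, lower calls were in excess without the correction too. Per library, the median deviation of abundance group 4 minus that of group 1 was 0.377, 0.179 and 0.125 (log2) in 0 h replicates 1, 2 and 3. It was -0.190, -0.320 and -0.343 in 24 h replicates 1, 2 and 3. All 0 h libraries were above 0 and all 24 h libraries below. With the correction the values were 0.141 ± 0.0982 at 0 h and -0.201 ± 0.0337 at 24 h (SD, n = 3; exact permutation test, two-sided, p = 0.1, the smallest possible, adjusted p = 0.13). In the fit without the correction, group 4 had 895 lower and 313 higher calls without 24 h replicate 2. It had 931 and 306 without 24 h replicate 3. Lower calls over all genes numbered 1668 and 1654 in these settings, against 2441 with every library. Another way to allow for length, chosen after seeing the data, was to enter each library's length slope as a covariate. Group 4 of abundance then had 617 lower and 327 higher genes and a median of -0.06, beside 0.04 over all genes. The slopes did not overlap between the times, so this covariate cannot be fully told apart from the time change. On the log2(TPM + 1) scale that group had 686 higher and 729 lower genes with a median of -0.03, while all genes had a median of 0.17. The share of counts in the 10 most abundant genes also differed between the times, and its part in this contrast was not tested. Within a time, the order of the libraries by that share was not their order by the contrast, in either direction.

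**Figure D4:**
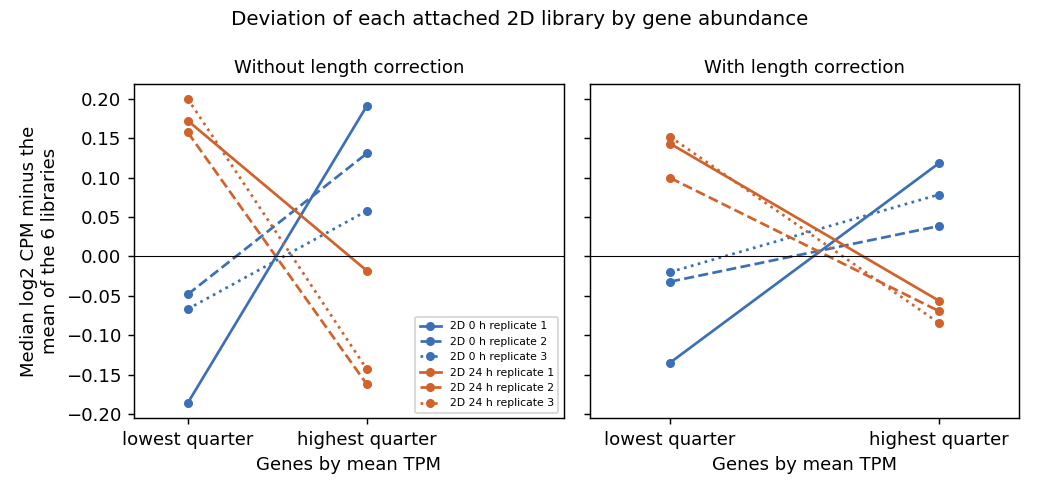
Median log2 CPM deviation of each attached 2D library from the mean of the 6 libraries, for the least and the most abundant of 4 equal groups of genes by mean TPM, without and with the length correction. All 0 h lines rise from the least to the most abundant group and all 24 h lines fall, with differences from -0.190 to -0.343 without the correction.

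Among the 100 most abundant genes, 52 were lower at 24 h and 14 higher, with a median log2 fold change of -0.40 and a median relative length of 0.503. With the length correction these counts were 40 and 21 and the median was -0.14. Few of these changes were large: 3 genes were at least 2-fold higher and 1 at least 2-fold lower. The 100 genes held 25.6% to 26.2% of the TPM at 0 h and 25.2% to 27.3% at 24 h, with overlapping groups.

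Single genes were taken by a rule on fitted values, namely the 2 most positive and 2 most negative log2 fold changes. Candidates were called, had a mean of at least 10 CPM at the time where they were higher, and had libraries that did not overlap between the times. The rule had 1775 candidates upward and 2042 downward. ENSMUSG00000026051, a short gene with a relative length of 0.327, had 1.03, 1.24 and 0.828 CPM in 0 h replicates 1, 2 and 3. It had 18.1, 14.2 and 17.8 CPM in 24 h replicates 1, 2 and 3. The rule itself required that the times not overlap. The fitted log2 fold change was 4.01 ± 0.31 (SE; edgeR adjusted p = 9.6e-08). The gene rose against the trend of short genes, and with the length correction the change was 4.31 ± 0.26. It also went from 1.16 ± 0.427 to 10.9 ± 2.90 CPM in the spheroids (SD, n = 3), and the test of the difference between cultures did not call it (edgeR adjusted p = 0.20).

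ENSMUSG00000050711 had 1.46, 0.219 and 0.414 CPM in 0 h replicates 1, 2 and 3, from 17, 3 and 6 counts. At 24 h it had 9.71, 12.1 and 13.3 CPM. The log2 fold change was 4.12 ± 0.44 (SE; edgeR adjusted p = 3.9e-06). The 0 h libraries differed among themselves more than the 24 h libraries in relative terms: without 0 h replicate 1 the change was 5.14, and without 0 h replicate 2 it was 3.69. Its relative length was 1.05, near the median gene, and the correction moved the change only to 4.06. In the spheroids it went from 1.09 ± 0.463 to 11.5 ± 2.34 CPM (SD, n = 3), and the difference between cultures was not called (edgeR adjusted p = 0.40).

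ENSMUSG00000004371 was the lower gene with the firmest counts. It had 155, 168 and 144 CPM in 0 h replicates 1, 2 and 3, and 8.44, 9.27 and 7.96 CPM in 24 h replicates 1, 2 and 3. The replicates of each time lay close together, and the log2 fold change was -4.19 ± 0.14 (SE; edgeR adjusted p = 1.0e-11). It was -4.03 ± 0.14 with the length correction. In spheroids it was low at both times, with 10.3 ± 1.18 CPM at 0 h and 14.7 ± 1.71 CPM at 24 h (SD, n = 3). That small rise was called, with a log2 fold change of 0.51 (edgeR adjusted p = 0.0055). The time change differed between the cultures by 4.70 ± 0.20 (SE; log2, 3D minus 2D; edgeR adjusted p = 2.7e-11).

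ENSMUSG00000109941 had 41.9, 28.1 and 16.6 CPM in 0 h replicates 1, 2 and 3 and 0 counts in all 24 h libraries. From the summed counts it was 338-fold lower at 24 h if 3 counts summed over the 24 h libraries are taken as the floor (edgeR adjusted p = 1.9e-07). The exact 95% counting interval was computed from the 0 counts seen and not from the floor. It begins at 275-fold and has no upper end. Interval and floor cover counting error only. In 6 libraries its expected count was not a whole number, so some of its reads were split with other genes, which leaves its level uncertain. It also had 0 counts in spheroids at 0 h and 7.91 ± 0.911 CPM in spheroids at 24 h (SD, n = 3).

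Genes whose reads were shared made up 2629 of those tested, taking genes with counts that were not whole in at least 6 of the 12 libraries. Of these, 12.6% were called higher and 19.4% lower, against 18.4% and 16.5% of the other 11709. They were shorter, with a median relative length of 0.842 against 1.05.

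Cell cycle lists were described next, since division is a main activity of attached stromal cells. They come from mouse marker pairs by Ensembl ID, with 121 genes in the G1 list, 80 in the S list and 93 in the G2/M list. They were chosen with results of these data known. In the G2/M list, 31 of 92 tested genes were higher at 24 h, 10 lower and 51 not called, so that 44.6% were called against 34.4% of all genes. The median log2 fold change was 0.16, beside 0.02 over all genes, and the members ran from -0.59 to 1.19. Of the 80 S genes, 24 were higher and 6 lower, with a median of 0.20. Of 116 tested G1 genes, 32 were higher and 14 lower, with a median of 0.17. At least 2-fold higher were 6 of 92 genes of the G2/M list, 6 of 80 of the S list and 7 of 116 of the G1 list, near the 5.86% of all genes.

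The S list was the longest of the lists, with a median relative length of 1.2, against 1.08 for G1 and 0.953 for G2/M. With the length correction 20 of its 80 genes were higher and 16 lower, the latter near the 19.4% lower of all genes in that fit (15% were higher), and its median went from 0.20 to 0.10. The G2/M list moved less: 29 were higher and 12 lower, and the median was 0.12, beside -0.01 over all genes. The G1 list had 25 higher and 14 lower with a median of 0.15. Without the correction, leaving out 1 library moved some counts by over 1.5 times. The 32 higher genes of the G1 list became 20 without 0 h replicate 1, and its 14 lower genes became 9 without 0 h replicate 2, 9 without 24 h replicate 2 and 8 without 24 h replicate 3. The 10 lower genes of the G2/M list became 6 without 24 h replicate 2.

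In each library, the median of the G2/M list relative to the mean of the 12 libraries was 0.291, 0.251 and 0.278 (log2) in 0 h replicates 1, 2 and 3. It was 0.546, 0.545 and 0.452 in 24 h replicates 1, 2 and 3. The mean of the 12 libraries includes the spheroids, at 0.355 ± 0.0360 at 0 h and -1.12 ± 0.0560 at 24 h (SD, n = 3). A value above 0 is therefore not in itself a raised level in attached cells. Of the attached libraries, those of 24 h were all higher than those of 0 h. With the length correction the groups drew together within themselves, at 0.304 ± 0.0108 and 0.512 ± 0.0125 (SD, n = 3). The summed TPM of the list overlapped between the times, at 8651 ± 157 and 8847 ± 403 (SD, n = 3). The S list had medians of -0.0773, 0.0348 and 0.0317 at 0 h and 0.155, 0.259 and 0.181 at 24 h, without overlap. For G1, 0 h replicate 2 at 0.213 lay within the range of the 24 h libraries, from 0.200 to 0.224, so the groups overlapped. The summed TPM of the G1 list did not overlap, at 6630 ± 224 at 0 h and 7250.3 ± 261 at 24 h, nor did that of the S list, at 2424 ± 143 and 2908 ± 211 (SD, n = 3).

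**Figure D5:**
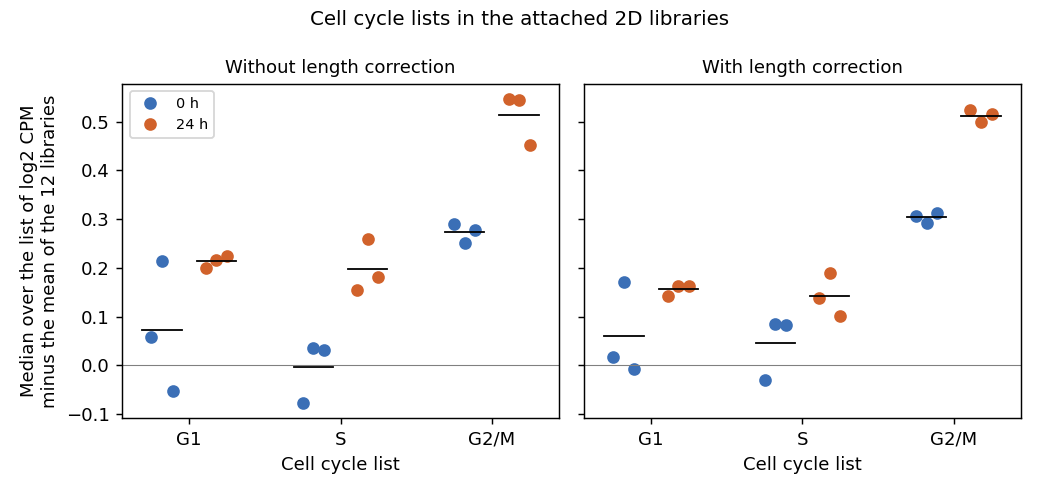
Each point is 1 attached 2D library: the median over a cell cycle list of log2 CPM minus the gene's mean over the 12 libraries, without and with the length correction, with group means as bars (n = 3). The G2/M points lie at 0.251 to 0.291 at 0 h and 0.452 to 0.546 at 24 h, while the G1 groups overlap. The 12 libraries include the spheroids at 24 h, where the G2/M value averaged -1.12.

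The same 24 h in spheroids gave other changes. The G2/M list had a median log2 fold change of -1.43 there, with 65 genes lower and 7 higher of 92. Of all genes, 24.7% were lower and 23.8% higher over 24 h in spheroids, with a median of -0.00426. The time change differed between the cultures for 72 of these 92 genes, against 39.1% of all genes (edgeR test of the difference, adjusted p under 0.05). For the S list it differed for 39 of 80 genes and for the G1 list for 53 of 116. Of the 2489 genes higher in attached cells, 798 rose in spheroids, 636 fell and 1055 were not called, beside the 23.8% of all genes that rose and 24.7% that fell. The difference itself was called for 1364 of them, with a smaller or opposite change in spheroids for 1250. Of the 2441 lower genes, the difference was called for 1379, with a smaller or opposite change in spheroids for 1247. These genes were chosen by the 2D change, which also enters the difference, so the counts are a description. With the length correction the difference was called for 41.4% of all genes, and for 1186 of the 2145 higher and 1704 of the 2766 lower genes.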

How the data were processed

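RNA of 12 libraries was sequenced after a SMART-seq v4 low-input step and a stranded TruSeq mRNA preparation, per the labels' protocols. FastQC 0.11.9, STAR, RSEM and GRCm39 are named in the submitters' processing notes. Annotation and settings were not given in the sources used here. Per gene ID, the authors deposited expected counts and log2(TPM + 1) values. Columns for day 0 and day 1 were read as 0 h and 24 h.

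Rounded expected counts were tested with edgeR 4.0.16 in R 4.3.3 (filterByExpr with minimum count 10, TMM, quasi-likelihood test, all 12 libraries, 1 term for each of 4 groups, 8 residual degrees of freedom). Relative effective length needed a TPM of at least 0.5 in a library. The length correction was a loess curve (span 0.3) per library, entered as an offset. limma 3.58.1 and DESeq2 1.42.0 were alternatives. Cell cycle pairs came from scran 1.30.0, where a list took genes that led 20 or more pairs and were the second gene of no more than 10% of theirs. Single genes were limited to 2 IDs in each direction, because no names were paired. For the same reason 54 symbol lists and the promoter search were not applied. Members, lists and rules were chosen with earlier results of these data known. The steps were run on simulated counts with 200 changed genes, without and with an added length trend. The pass condition covered only the fit without a trend and without the length correction, so it did not test the correction.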

Additional observations from a re-analysis of the deposited data

Results flagged for a closer look

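An edgeR test of whether the change over 24 h differed between spheroids and attached cells called 5610 genes (39.1% of those tested), and 5916 with the length correction. Of the single genes, ENSMUSG00000004371 had a 3D minus 2D difference of 4.70 (log2; edgeR adjusted p = 2.7e-11). It fell in attached cells from 156 ± 12 to 8.55 ± 0.662 CPM (SD, n = 3). In spheroids it was low at both times, with a small rise that was called. ENSMUSG00000109941 had a fitted difference of 21.23 (log2; edgeR adjusted p = 6.7e-09). That value depends on the prior count, because the gene had 0 counts in attached cells at 24 h and in spheroids at 0 h, and its reads were shared with other genes. Both genes were picked for extreme changes in the attached libraries, which also enter the difference, and their p-values take no account of this choice.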

How the results depend on the processing

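With each library's length slope as a covariate, an alternative chosen after seeing the data, 1091 genes were higher and 1234 lower, and the rho with length was 0.00407. The slopes did not overlap between the times, so this covariate cannot be fully told apart from the time change. The cause of the lower counts was not tested. The rho was 0.00364 with the length correction, and 0.0135 with the replicate block and the length correction in the 6 attached libraries. The correction takes off the fitted length curve of each library, so a rho near 0 with it was set in advance. Without a filter on low counts the rho was 0.18. On the TPM scales the lower genes numbered 1257 (pseudocount 1) and 1228 (pseudocount 0.1). Leaving out each library in turn gave 1770 to 2660 higher and 1654 to 2546 lower genes, a rho of 0.259 to 0.380, and 4857 to 5870 genes that differed between cultures. Same-numbered libraries of the 2 times correlated in their deviations from the group means at 0.0518, -0.0620 and -0.00300, so the numbers were not taken as pairs. The replicate block in the 6 libraries gave 2112 higher and 1928 lower genes, and over all 12 libraries 5134 genes differed between cultures with it. The other settings run kept these counts within 1.5 times. All 4 single genes kept their call and direction under 19 alternatives each. Their adjusted p-values were at most 8.6e-04, for ENSMUSG00000050711 with the replicate block (edgeR). These genes were picked as the most extreme calls in the same libraries, so this outcome was largely set by the choice.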

Other observations

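The effective length of a gene in a library also reflects which of its transcripts were counted. Among 7952 genes with at least 5 TPM in every library, the length trend of each library was taken off and log2 effective length was compared between 24 h and 0 h in attached cells with limma. It was called longer for 11 genes and shorter for 2 (adjusted p under 0.05, or 0.163% of those tested), and 824 had an unadjusted p under 0.05. The called shifts reached 0.64 upward and -0.37 downward (log2). Of the 13 genes, 4 were also called higher in level and 3 lower, beside 17.4% and 17% of all 14338 genes tested for level. These counts are too small to read a link with level from them. The direction of the calls depended on single libraries: 3 were longer and 4 shorter without 24 h replicate 2, and 3 were longer and 5 shorter without 24 h replicate 3. Their number did too: 7 genes were called without 0 h replicate 1 or without 24 h replicate 2, 8 without 24 h replicate 1 or 24 h replicate 3, and 19 without 0 h replicate 3, and between 4 and 7 of these were among the 13. The same test called 172 genes over 24 h in spheroids, and 33 for the difference between the cultures. This comparison was added after the data had been seen.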
